A study of Mus musculus with 4 samples.

Results

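Globins carry oxygen in red cells as tetramers of alpha and beta chains, each chain holding 1 haem group. Red cell precursors make that haem through a pathway whose first step is catalysed by ALAS2, and the factors GATA1 and KLF1 switch on the globin and haem genes while erythropoietin, acting through its receptor, keeps the precursors alive. These transcripts are classic markers of red cells and their precursors, and are not markers of mammary carcinoma cells. The 9 genes described here are Hba-a1, Hba-a2, Hbb-b2, Hbb-bt, Alas2, Car2, Klf1, Gata1 and Epor, taken by gene name from 37074 names on the array. They were chosen by a measured value, the ALDH by time value of these same arrays, which is the difference between ALDH-high and ALDH-low cells at ZT12 minus that at ZT0. That value is therefore given as a description, without a test.

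The cells came from untreated BALB/C mice with implanted tumours of 4T1, a mammary carcinoma line of the mouse. The ALDEFLUOR assay, whose substrate aldehyde dehydrogenase (ALDH) turns into a fluorescent product, was used to sort cells with high from cells with low activity. The 4 groups are ZT12 ALDH-high, ZT12 ALDH-low, ZT0 ALDH-high and ZT0 ALDH-low, where zeitgeber times ZT12 and ZT0 are lights off and lights on in the usual convention. Each group is 1 one-colour Agilent array with no replicate, and the sources used here do not give the number of mice behind an array.

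The arrays paired by slide position rather than by ALDH arm or time. Over the 23520 tested features the ZT12 ALDH-high and ZT0 ALDH-low arrays, both at position 1_1, had a Pearson r of 0.979 across features. The arrays at position 1_2, ZT12 ALDH-low and ZT0 ALDH-high, had an r of 0.964, and the pairs that share an arm or a time lay between 0.857 and 0.877. Features share their array, so these r values are descriptions. The ALDH by time value equals, up to its scale, position 1_1 minus position 1_2, so the 2 cannot be told apart. Each time also had a slide of its own, and time cannot be told apart from slide either. The processed signal had a 75th percentile of 156.3 and 213.6 at position 1_1 and 458.8 and 300.6 at position 1_2, and the spike-in controls had slopes of 0.789 and 0.873 at position 1_1 and 0.944 and 0.956 at position 1_2. The part of these differences in the results was not tested. Aldh1a1, an isoform with ALDEFLUOR activity, was 1.38 log2 units higher in ALDH-high than in ALDH-low cells at ZT12 and 1.65 lower at ZT0, so at ZT0 it ran against the label. With normexp and quantile normalization these differences were 0.27 and -0.89. Ptprc, which encodes the pan-leukocyte antigen CD45, ran the other way, with ALDH-high minus ALDH-low differences of -2.35 at ZT12 and 3.09 at ZT0. Whether the labels of the ALDH arms were crossed at 1 of the times was not tested; a crossing would turn the sign of every ALDH difference at that time. The groups are called by their labels throughout.

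The globin genes are read through 5 probes of 60 bases, whose letters are shown because they decide which copies each signal can come from. The downstream Hba-a1 probe, on chromosome 11 at 32184427-32184486 in build mm9, and the Hba-a2 probe, at 32197245-32197304, share 59 of 60 bases with a shift of 1 base. Their last 30 bases follow, with the letters that both printed stretches share in capitals. The first printed letter of Hba-a1 is shared too, but its match lies just before the printed Hba-a2 stretch.
Hba-a1, probe 1: gGTCTTTGAATAAAGCCTGAGTAGGAAGAA
Hba-a2: GTCTTTGAATAAAGCCTGAGTAGGAAGAAg
The array design lists both alpha-globin transcripts as targets of these probes and of the second Hba-a1 probe, which lies upstream at 32183955-32184014. Hba-a1 and Hba-a2 are thus uncertain as separate genes, and their 3 probes are best read as 1 alpha-globin measurement.
Hba-a1, probe 2: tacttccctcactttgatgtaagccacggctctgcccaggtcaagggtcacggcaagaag
The Hbb-b2 probe has no position in build mm9, and the design lists a second beta-globin transcript beside it. BALB/c mice carry the Hbb-b1 and Hbb-b2 pair of beta-globin genes, where the reference strain carries Hbb-bs and Hbb-bt.
Hbb-b2: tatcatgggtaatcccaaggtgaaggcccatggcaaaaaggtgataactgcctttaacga
The Hbb-bt probe lies on the minus strand of chromosome 7 at 110961105-110961164, and its last 30 bases are given. Beta-globin copies can share targets too, so these genes are also uncertain as separate genes.
Hbb-bt: tatgtcccctagagaaaaactgtcaattgt

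The alpha-globin probes were bright on the ZT12 ALDH-high and ZT0 ALDH-low arrays and far dimmer on the other two. Hba-a1 probe 1 had processed signals of 30832 ± 693 in ZT12 ALDH-high cells, 1264 ± 51.2 in ZT12 ALDH-low cells, 759 ± 33.5 in ZT0 ALDH-high cells and 124657 ± 5009.8 in ZT0 ALDH-low cells. The errors are SDs over 9 or 10 replicate spots of 1 array and say nothing about the spread between tumours. Probe 2 had 10978 ± 362 and 316 ± 12.5 in ALDH-high and ALDH-low cells at ZT12, and 198 ± 10.5 and 43866 ± 1850.1 in ALDH-high and ALDH-low cells at ZT0. On every array the spots of a probe lay close together, and the bright arrays did not overlap the dim ones. The plot of the replicate spots shows this separation.

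**Figure D1:**
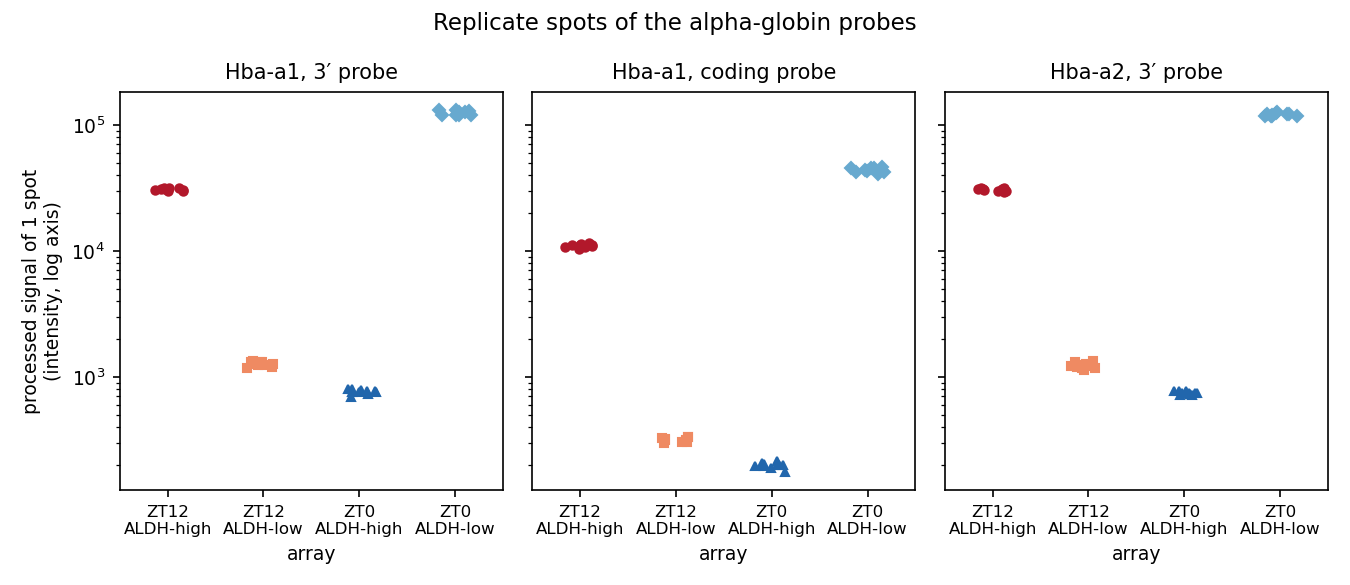
Processed signal (intensity, log axis) of each replicate spot of the 3 alpha-globin probes on the 4 arrays, 1 point per spot. For each probe the ZT12 ALDH-high and ZT0 ALDH-low spots sit far above those of ZT12 ALDH-low and ZT0 ALDH-high, and the ZT0 ALDH-low spots are the highest.

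Levels below are log2 signals relative to the 75th percentile of each array. Hba-a1 (probe 1) had levels of 7.62 in ZT12 ALDH-high, 1.46 in ZT12 ALDH-low, 1.33 in ZT0 ALDH-high and 9.19 in ZT0 ALDH-low cells. It was thus 71.6-fold higher in ALDH-high than in ALDH-low cells at ZT12 and 231-fold lower in ALDH-high cells at ZT0. Hba-a2 had ALDH-high minus ALDH-low differences of 6.20 log2 units at ZT12 and -7.84 at ZT0, close to those of Hba-a1. Probe 2 of Hba-a1 gave 6.67 and -8.28, a wider separation than probe 1 at both times by more than the spot SDs, which were between 0.03 and 0.08 log2 units.

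The beta-globin probes had the same order of arrays. Hbb-b2 had levels of 5.23 in ZT12 ALDH-high, -1.46 in ZT12 ALDH-low, -1.80 in ZT0 ALDH-high and 6.77 in ZT0 ALDH-low cells. Hbb-bt had levels of 5.59 in ZT12 ALDH-high, -0.96 in ZT12 ALDH-low, -1.15 in ZT0 ALDH-high and 7.24 in ZT0 ALDH-low cells. Hbb-b2 was 103-fold higher in ALDH-high cells at ZT12 and 380-fold lower at ZT0, and Hbb-bt was 93.9-fold higher at ZT12 and 335-fold lower at ZT0. In signal, the alpha-globin probes made up 0.156% of the summed probe signal of the ZT12 ALDH-high array and 0.00273% of the ZT12 ALDH-low array. At ZT0 that share was 0.00223% in ALDH-high and 0.555% in ALDH-low cells. In bulk RNA, fewer cells of a type and less RNA per cell cannot be told apart.

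Alas2, the enzyme of the first step of haem synthesis in red cell precursors, followed the globins. Its probe, on chromosome X at 147004993-147005052 in build mm9, had processed signals of 228 in ZT12 ALDH-high and 1142 in ZT0 ALDH-low cells. It was not well above background in ZT12 ALDH-low cells, at 4.70, or in ZT0 ALDH-high cells, at 3.48. The differences are therefore bounds, taken on the dim array against its lowest signal well above background or the probe's own signal, whichever was higher. Alas2 was at least 44.4-fold higher in ALDH-high cells at ZT12 and at least 129-fold lower in ALDH-high cells at ZT0. Between the times it was at least 35.1-fold higher at ZT12 in ALDH-high cells and at least 163-fold lower at ZT12 in ALDH-low cells.

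Car2, carbonic anhydrase 2, which interconverts carbon dioxide and bicarbonate in red cells and in many other cell types, shared part of the pattern. Its levels were 0.19 in ZT12 ALDH-high, -0.74 in ZT12 ALDH-low, -2.66 in ZT0 ALDH-high and 0.35 in ZT0 ALDH-low cells. ALDH-high cells were 1.90-fold higher at ZT12 and 8.04-fold lower at ZT0. The ZT12 difference, 0.93 log2 units, was 0.06 with median scaling, and the processed signal before scaling was 178 in ZT12 ALDH-high and 275 in ZT12 ALDH-low cells. The ZT0 difference was -1.85 with normexp and quantile normalization. The ZT0 ALDH-high array was the lowest of the 4 and lay 3.79-fold below the ZT12 ALDH-low array.

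The regulators did not show the globin pattern. Klf1, a factor that binds CACCC boxes of red cell genes, was not well above background with either of its 2 probes on any array, and so passed no filter. Gata1, the GATA factor of red cell, megakaryocyte and mast cell lineages, had processed signals of 12.7 in ZT12 ALDH-high, 17.9 in ZT12 ALDH-low, 16.2 in ZT0 ALDH-high and 19.4 in ZT0 ALDH-low cells. It was well above background on both ZT0 arrays and on neither ZT12 array, so it has no fold at ZT12, and at ZT0 the scaled level was 1.68-fold lower in ALDH-high cells, or 0.02 log2 units higher there with normexp and quantile normalization. Of the 2 probes of Epor, the erythropoietin receptor, 1 did not pass that mark on any array. The other had processed signals of 22.1, 25.2, 23.3 and 23.4 in ZT12 ALDH-high, ZT12 ALDH-low, ZT0 ALDH-high and ZT0 ALDH-low cells. These signals are nearly level, and the scaled Epor difference of 1.36 log2 units at ZT12 follows from the 75th percentile by which each array was divided. At ZT0 the scaled Epor difference was -0.50, and it was between 0.05 and 0.10 with quantile normalization, normexp and quantile normalization, or the authors' series table. The name given to the set thus holds for the globins and Alas2, and not for Klf1, Gata1 or Epor on these arrays.

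**Figure D2:**
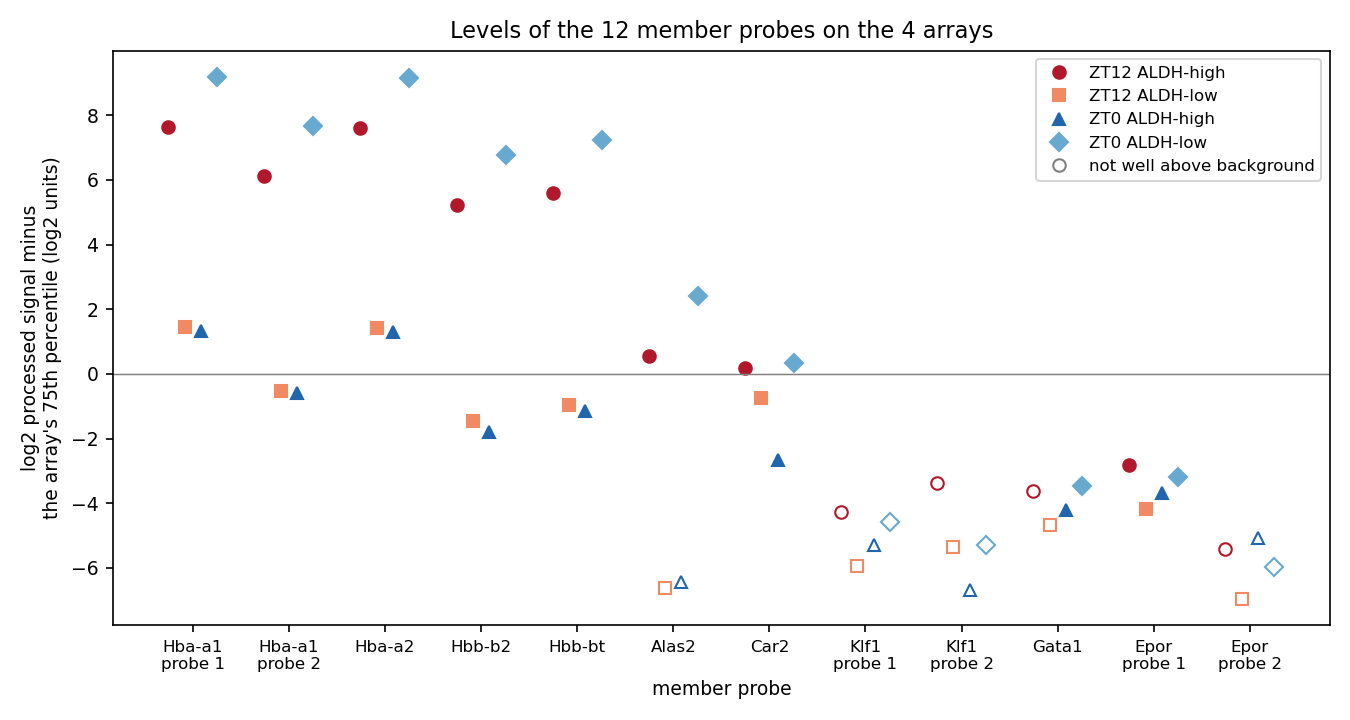
Level (log2 signal relative to the 75th percentile of its array) of each of the 12 member probes on each array, with open symbols where a probe was not well above background. The globin probes and Alas2 are high on the ZT12 ALDH-high and ZT0 ALDH-low arrays, while the Klf1, Gata1 and Epor probes lie near the background on all 4.

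Because the members were chosen on this contrast, their counts are given beside those of all features and nothing is read from them. Of the 8 members that passed the filter of well above background on at least 2 arrays, 7 were at least 2-fold higher in ALDH-high cells at ZT12, as were 32.2% of the 23520 features. One of the 7 was Gata1, which was not well above background on either ZT12 array. At ZT0, 6 of 8 were at least 2-fold lower in ALDH-high cells, against 31.5% of all features. Both held for 5 of 8, the globins and Alas2, and for 20.4% of all features. The opposite pair, at least 2-fold lower at ZT12 and at least 2-fold higher at ZT0, held for 0 members and for 15% of features. In ALDH-high cells 6 of 8 were at least 2-fold higher at ZT12 than at ZT0, against 32.5% of features. In ALDH-low cells 7 of 8 were at least 2-fold lower at ZT12 than at ZT0, against 32.7% of features. The median ALDH difference of the 8 members was 6.18 at ZT12 and -7.85 at ZT0, and that of all features was 0.30 and -0.32. Hba-a1 and Hba-a2, best read as 1 alpha-globin measurement, are counted separately here and are the middle values of that median. Beta-globin probes can share targets too, so the counts are not of independent members.

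By the ALDH by time value, ranks over the 23520 features rest on measured values, which for probes not well above background on 1 or more arrays have a bound only. Alas2 had a measured value of 16.00 log2 units and ranked 1, but its bound is at least 12.48, so its place relative to the globins is not settled. Hbb-b2 ranked 3 at 15.26, Hbb-bt 4 at 14.94, Hba-a2 5 at 14.03 and Hba-a1 6 at 14.02. Another globin, Hbb-b1, had a measured value of 15.77 and a bound of at least 14.97. Car2 ranked 3213 at 3.93, Epor 8345 at 1.86 and Gata1 8545 at 1.81, so these do not belong to the extreme of that measure.

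**Figure D3:**
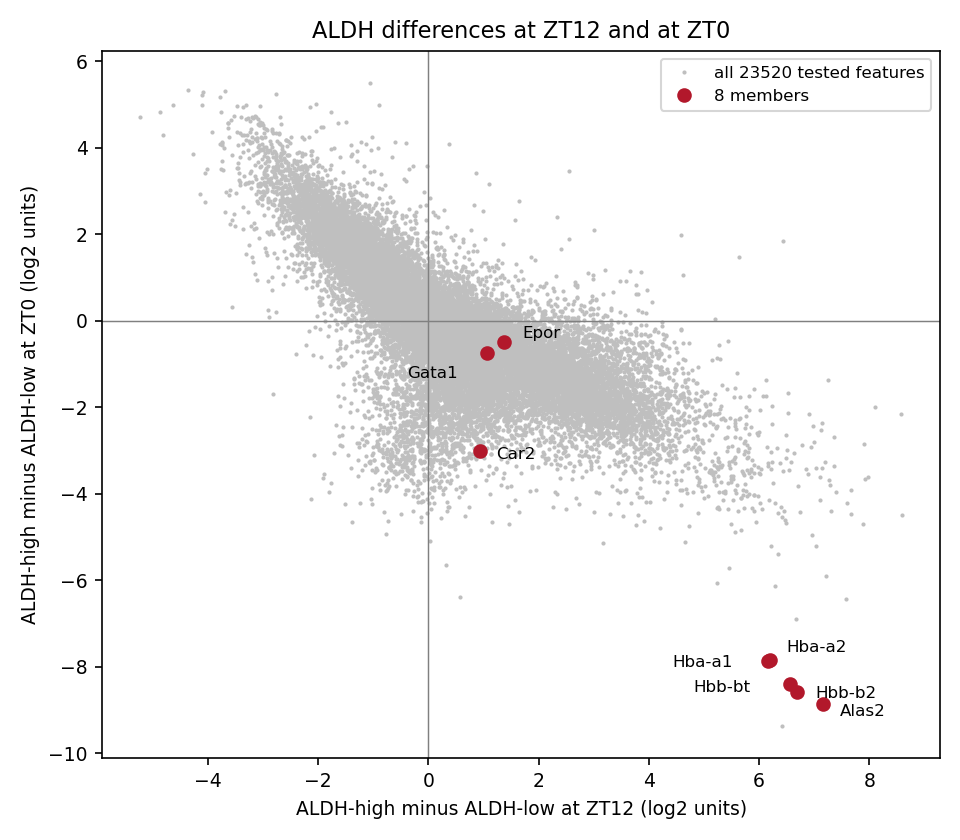
Log2 difference of ALDH-high minus ALDH-low at ZT12 (horizontal axis) against that at ZT0 (vertical axis), 1 grey point for each of 23520 features and 1 red point for each of 8 members. Hba-a1, Hba-a2, Hbb-b2, Hbb-bt and Alas2 lie at the lower right end of a cloud that itself slopes downward, and Car2, Gata1 and Epor lie within the cloud.

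Set within a slide position, the globins differed far less. At position 1_1, ZT12 ALDH-high minus ZT0 ALDH-low was -1.56 log2 units for Hba-a1 (probe 1), -1.54 for Hbb-b2 and -1.65 for Hbb-bt, and -1.87 for Alas2. At position 1_2, ZT0 ALDH-high minus ZT12 ALDH-low was -0.13 for Hba-a1, -0.35 for Hbb-b2 and -0.19 for Hbb-bt. These pairs differ in both arm and time, and no replicate gives their spread.

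The effects that the choice of members did not use are the ALDH mean over both times and the time mean over both arms. In the additive limma fit with Benjamini-Hochberg adjustment, 0 of 23520 features (0%) were called for ALDH and 0 (0%) for time, with 7 and 2 features at an unadjusted p under 0.05. Its 1 residual degree of freedom comes from the ALDH by time value, on which the members were chosen, and it gave every feature a standard error of 1.54 log2 units. For the 5 members with the pattern, the ALDH-high minus ALDH-low mean lay between -0.94 (Hbb-b2) and -0.82 (Hba-a2). Their ZT12 minus ZT0 mean lay between -1.03 (Alas2) and -0.60 (Hbb-b2). Car2 had an ALDH mean of -1.04 and a time mean of 0.88. Each of these adjusted p-values from limma rounded to 1, so neither factor gave a difference beyond the spread of the fit, which does not show that there was none.

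Of a list of 13 genes, other globins and the globin chaperone Ahsp, 11 were on the array and 2 passed the filter. Hbb-b1, the other adult beta-globin, had levels of 2.40 in ZT12 ALDH-high, -4.01 in ZT12 ALDH-low and 3.98 in ZT0 ALDH-low cells, and was not well above background in ZT0 ALDH-high cells. Its difference was 6.41 at ZT12, and at ZT0 it was at least 378-fold lower in ALDH-high cells. Cygb, cytoglobin, which is expressed outside the blood, had differences of 2.87 at ZT12 and -2.33 at ZT0, the sequence in which pairs of differences are given from here on. The embryonic globins Hba-x and Hbb-y were not well above background on any array.

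Other red cell markers were partly measured. Of 11 red cell lineage markers, 6 were well above background in ZT12 ALDH-high, 4 in ZT12 ALDH-low, 4 in ZT0 ALDH-high and 7 in ZT0 ALDH-low cells. The 4 found on every array are the globin members. Slc4a1, the band 3 anion exchanger, had processed signals of 41.8 in ZT12 ALDH-high and 213 in ZT0 ALDH-low cells and was not well above background on the other two arrays. It was at least 8.01-fold higher in ALDH-high cells at ZT12 and at least 21.6-fold lower at ZT0. With normexp and quantile normalization the differences were 0.62 and -1.93 log2 units. Ahsp, the alpha-globin chaperone, was well above background in ZT0 ALDH-low cells alone, at 79.5. Rhag and Epb4.2, which encode the Rh-associated glycoprotein and protein 4.2, were not well above background on any array.

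The other haem synthesis enzymes did not share the pattern of Alas2 as a group. Of 8 on the array, all above background on all 4 arrays, 2 had the globin pattern, which here means at least 2-fold higher in ALDH-high cells at ZT12 and at least 2-fold lower at ZT0. One was Alad (1.28 and -2.45), named after its values were seen. The opposite pattern was seen in 2, Alas1 (-1.83 and 1.97), the housekeeping form of the first enzyme, and Ppox (-1.03 and 1.93). Over all features the globin pattern held for 20.4% and the opposite for 15%, so these counts alone do not set the list apart. With median scaling 0 of the 8 had the globin pattern and 2 the opposite. Urod, a later enzyme of the pathway, had -0.44 and 0.36. The median over the 8 was -0.13 at ZT12 and -0.34 at ZT0, against 0.30 and -0.32 over all features.

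The other red cell lists were mixed. Over all features 20.4% had the globin pattern and 15% the opposite, and several counts below lie near these shares. Of 17 tested genes of iron and haem transport and breakdown, 0 had the globin pattern and 3 the opposite one. Fth1 and Ftl1, the ferritin chains, had ALDH differences of 0.55 and 0.40 at ZT12 and 0.32 and 0.66 at ZT0, and Hmox1, which breaks down haem, had -0.55 at ZT12 and 1.43 at ZT0. Of 11 tested red cell membrane and cytoskeleton genes 8 were at least 2-fold higher in ALDH-high cells at ZT12, against 32.2% of all features. At ZT0, 3 were at least 2-fold lower in ALDH-high cells, against 31.5%, and 2 had both, Slc4a1 and Gypc. The ZT12 differences of this list depended on the scaling. Their median was 1.13 here and 0.26 with median scaling, where 1 gene had the globin pattern and 2 the opposite. Tspan33, Epb4.1 and Ermap, 3 bright members of that list, had 1.52, -0.90 and 1.33 at ZT12 and -0.74, 0.72 and -0.39 at ZT0. Of 15 red cell enzyme and maturation genes 1 had the globin pattern and 2 the opposite. Gpx1, a glutathione peroxidase, Hemgn, hemogen, and Bnip3l, a mitophagy receptor, had -0.84, -0.53 and -1.60 at ZT12 and 1.36, 0.36 and 1.60 at ZT0. Of 18 other erythroid transcription factors 1 had the globin pattern, Bcl11a, and 4 the opposite; E2f2, Klf3 and Lyl1 had differences of -0.84, -2.04 and -0.45 at ZT12 and 1.74, 2.49 and 1.19 at ZT0. Over this scaling and the 4 other scalings and normalizations, the opposite pattern was seen in 2 to 6 genes of iron and haem transport, 2 to 5 of the red cell enzyme list and 4 to 7 erythroid factors, and the globin pattern in 1 to 4 of the red cell enzyme list.

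Most genes of erythropoietin and stem cell factor signalling ran opposite to the globins. Of 13 tested, 10 were at least 2-fold lower in ALDH-high cells at ZT12 and at least 2-fold higher at ZT0, with medians of -1.66 and 2.11, and 1, Socs2, a suppressor of cytokine signalling, had the globin pattern (1.72 and -1.62). Socs3, Lyn and Pim1, which also act downstream of many other cytokine receptors of leukocytes, had -1.38, -1.66 and -1.65 at ZT12 and 2.82, 2.28 and 2.34 at ZT0. Of 10 tested carbonic anhydrases besides Car2, 5 had the globin pattern and 2 the opposite. The shares of all features with these patterns were 20.4% and 15%. Car7 had 2.40 and -2.66, Car9, a hypoxia-induced form, -0.51 and -2.90, and Car4, a membrane-bound form, -1.48 and 1.40. In none of these 8 lists did a gene pass the additive test. No feature at all (0%) passed it, so this says nothing particular to the lists.

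Most listed B cell and T and NK cell markers, and 5 of 8 macrophage markers, had the globin pattern. With the scaling used here the summed level of each of these lists was highest on the ZT12 ALDH-high array. The globins were highest in ZT0 ALDH-low cells. The globin pattern held for 20.4% of all features. Summed levels here add the signals of a list's tested markers, each divided by the array's 75th percentile. Of 8 B cell markers 7 had the globin pattern, and their summed level was 44.1 in ZT12 ALDH-high, 3.94 in ZT12 ALDH-low, 6.97 in ZT0 ALDH-high and 35.5 in ZT0 ALDH-low cells. Cd79b, a chain of the B cell receptor, had differences of 5.62 and -4.39, and Cd79a, its partner chain, 3.14 and -2.48. Of 10 T and NK cell markers 9 had that pattern, with summed levels of 54.4, 4.42, 17.1 and 42.4 in ZT12 ALDH-high, ZT12 ALDH-low, ZT0 ALDH-high and ZT0 ALDH-low cells. Cd3e, a T cell receptor chain, had 2.97 and -1.57, while Cd3d, another such chain, had 1.03 and 1.90. Of 8 macrophage markers 5 had that pattern, among them the complement genes C1qa (3.19 and -2.80) and C1qb (3.23 and -2.57). Their summed levels were 262, 148, 153 and 213 in the same order of groups. Scaled to the median of each array, the macrophage sum is instead highest in ZT12 ALDH-low cells, though close to that in ZT12 ALDH-high cells. Over this scaling and the 4 other scalings and normalizations, the number with the globin pattern was between 4 and 7 for the B cell, 8 and 9 for the T and NK cell, 4 and 5 for the macrophage and 1 and 5 for the carbonic anhydrase genes, and the opposite pattern was seen in 9 to 12 of the erythropoietin signalling genes.

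In the other lists of cell types the pattern was seen in at most 2 genes each. It held for 20.4% of all features, and its opposite for 15%. Of 10 neutrophil markers 0 had the globin pattern and 6 the opposite, with summed levels of 3113, 2092, 3531 and 2283 in ZT12 ALDH-high, ZT12 ALDH-low, ZT0 ALDH-high and ZT0 ALDH-low cells. The median differences of these neutrophil markers were -1.97 at ZT12 and 3.36 at ZT0. S100a8 and S100a9, abundant neutrophil proteins and not among the 6, had differences of 0.57 and 1.27 at ZT12 and 0.35 and -0.26 at ZT0. They are among the brightest of the list, and the summed levels follow the brightest markers more than the other ones. Of 9 tested platelet markers 1 had that pattern, Pf4 (2.01 and -2.79), while Ppbp, another platelet chemokine, had 0.24 and -0.57. Of 10 mast cell and basophil markers 1 had that pattern, and Cpa3 and Mcpt8, 2 of their proteases, had 3.12 and 3.44 at ZT12 and -0.17 and -0.47 at ZT0. Of 4 tested endothelial markers 1 had that pattern, with summed levels between 0.879 and 1.18 on the 4 arrays, Pecam1 at -0.04 and 0.54, and Cdh5 below the filter. Of 10 epithelial markers of the tumour cells 2 had the pattern, and 10 were at least 2-fold lower in ALDH-high cells at ZT0. Counting differences of any size, 10 were higher in ALDH-high cells at ZT12 and lower at ZT0. That count depended on the scaling. With median scaling it was 2, and 0 had the pattern. The epithelial median at ZT12 was then -0.20, against 0.67 with the scaling used here, and at ZT0 it stayed low at -3.34. With quantile normalization the count was 8, and 1 had the pattern. The epithelial markers had summed levels of 95.6, 86.9, 12.1 and 198 in ZT12 ALDH-high, ZT12 ALDH-low, ZT0 ALDH-high and ZT0 ALDH-low cells. With this scaling that is the same order of arrays as the globins, though the ZT12 levels lie close together. That order does not hold with median scaling. The 75th percentile and the median were 156.3 and 25.3 on the ZT12 ALDH-high array and 458.8 and 40.6 on the ZT12 ALDH-low array. Scaled to the median, the epithelial sum is therefore higher in ZT12 ALDH-low than in ZT12 ALDH-high cells. Whether the order holds with quantile normalization was not tested. Krt8 and Krt18, the simple keratins, had 0.07 and 0.02 at ZT12 and -4.07 and -4.22 at ZT0. The part of these cell types in the globin values was not tested.

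**Figure D4:**
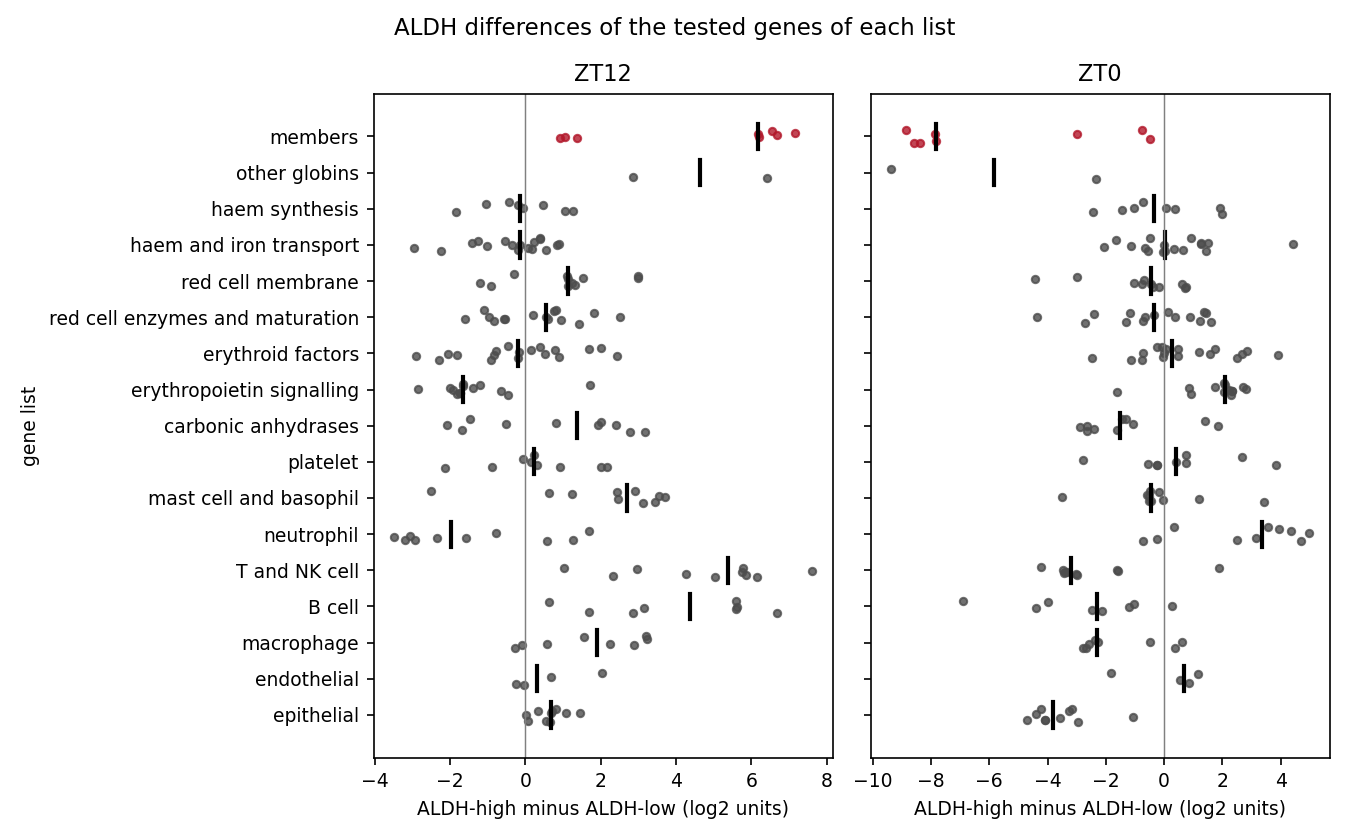
Log2 difference, ALDH-high minus ALDH-low, of each tested gene at ZT12 (left) and ZT0 (right), 1 point per gene in rows by list, with a black bar at each median. Of the 8 members 5 lie far to the right at ZT12 and far to the left at ZT0, the T and NK cell and B cell medians lie on the same sides, the epithelial median is near 0 at ZT12 (0.67) and at -3.82 at ZT0, and the neutrophil and erythropoietin signalling rows lie on the other side of 0.

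The features most like the globins were searched among 12774 features that were well above background on all 4 arrays and had an established symbol. The adult beta-globin Hbb-b1, well above background on 3 arrays, was not among them. Likeness was the root mean square distance over the 4 arrays between centred levels and the mean centred level of the 4 globin members. The nearest of the features searched was Vpreb3, a pre-B cell gene, at 0.52 log2 units. It had ALDH differences of 6.67 at ZT12 and -6.90 at ZT0. The 4 globins themselves lay between 0.10 (Hbb-bt) and 0.18 (Hbb-b2) from that mean. They make up the mean, so their distances cannot be compared with those of other features. Alas2 lay 0.40 away on its measured values, Car2 lay 2.77 away, Gata1 3.24 and Epor 3.26. Others among the 10 nearest were Vpreb1, part of the surrogate light chain of pre-B cells, at 1.32, Cd79b at 1.37, Snora74a, a small nucleolar RNA, at 1.39 and Tbx22, a T-box factor, at 1.45. Then came Gzma, a granzyme of T and NK cells, at 1.54, Syn3, a synapsin, at 1.54, and the neural adhesion genes Lsamp at 1.55 and Opcml at 1.57. Only 4 arrays stand behind each distance.

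The proximal promoters of Hba-a1, Hbb-bt and Alas2, whose transcripts were high on the same arrays, ZT12 ALDH-high and ZT0 ALDH-low, are shown from RefSeq (build GRCm38.p6), as the 110 bases before each start. Capitals mark 4 motifs found on either strand, which are the box with the letters CACCC that KLF1 is known to bind, the promoter element written CCAAT, the letters GATAA known to be bound by GATA factors, and the TATA-like run ATATAA found near many starts. Adjoining matches run together, as in Alas2. Hba-a1 lies at chr11:32283562-32283671 on the plus strand, Hbb-bt at chr7:103813924-103814033 on the minus strand and Alas2 at chrX:150547307-150547416 on the plus strand.
Hba-a1: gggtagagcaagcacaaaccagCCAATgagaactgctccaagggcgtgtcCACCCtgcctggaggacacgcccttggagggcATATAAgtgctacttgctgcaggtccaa
Hbb-bt: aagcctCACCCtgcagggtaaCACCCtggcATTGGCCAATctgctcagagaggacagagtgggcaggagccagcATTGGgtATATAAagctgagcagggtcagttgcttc
Alas2: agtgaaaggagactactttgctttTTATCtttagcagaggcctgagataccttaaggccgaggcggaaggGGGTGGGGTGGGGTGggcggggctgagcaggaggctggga
Both globin promoters hold the KLF1-type box, the CCAAT element and the TATA-like run in this window, and Alas2 holds the GATA motif and the KLF1-type box but neither of the others. The Hba-a1 and Hba-a2 promoters are identical over 247 of 250 bases with a shift of 3 bases. Promoter sequence was found for 7 of the 9 members, and not for Car2 or Hbb-b2. Within 250 bases before the start, CACCC was found in 7 of 7, against 52.0% of 32851 promoters, and GATAA in 6 of 7, against 22.6%. CCAAT was found in 4 of 7, against 33.8%, and ATATAA in 3 of 7, against 9.10%. Klf1, Gata1 and Epor, whose transcripts lay near the background, are among the 7. A letter match is a description and not a binding site.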

How the data were processed

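Levels were read from the scanner files of 4 one-colour arrays of labelled total RNA. Per the file headers, Agilent Feature Extraction 10.7.1.1 made the processed signal, a linear intensity after background subtraction within each array, with no normalization between arrays. Version 9.5.1.1 is named in the submitters' processing notes. The authors' deposited table of the series, an alternative here, gives linear intensity with a median of 28.3 in each of the 4 columns.

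Control spots and outlier spots were left out, a probe's spots were averaged as log2 values, and each array was scaled to its 75th percentile. Features well above background on at least 2 of 4 arrays were tested, 1 probe per gene name, the one with the highest mean level. The test was that of limma 3.58.1 (R 4.3.3), two-sided with eBayes, with ALDH arm and time as terms and a Benjamini-Hochberg threshold of 0.05, checked on simulated data. With no replicates, the p-values of this fit set each factor against the ALDH by time difference. That difference cannot be told apart from array position, and it is not a spread between replicates. Replicate spots had a median SD of 0.0369 to 0.0448 log2 units on an array. A named gene is a member, 1 of the 3 brightest of a list (of other cell types, the first 2 listed), 1 of the 10 nearest in pattern, Aldh1a1 or Ptprc, and others are named where a count is small; some genes that this rule names are not reported here. The members and the 16 lists were chosen with earlier results of these data known. Alternatives were median scaling, quantile normalization with and without normexp (offset 50), the authors' table, 2 other filters, the mean of all probes, other terms in the fit and leaving out each array. Positions are in build mm9, as in the files. Promoters are from RefSeq. Python 3.11.15, pandas 2.3.3, numpy 2.4.6 and matplotlib 3.10.9 were used.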

Additional observations from a re-analysis of the deposited data

Results flagged for a closer look

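In 5 members the ALDH-high array was at least 2-fold higher at ZT12 and at least 2-fold lower at ZT0. The ZT12 minus ZT0 value of that difference was 14.02 log2 units for Hba-a1, 14.03 for Hba-a2, 15.26 for Hbb-b2, 14.94 for Hbb-bt and 16.00 for Alas2 as measured. Alas2 was not well above background on 2 of the 4 arrays, so its value is at least 12.48. With 1 array in each group the difference between the times was not tested, and the members were chosen on this value.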

How the results depend on the processing

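The 5 members with the pattern (Hba-a1, Hba-a2, Hbb-b2, Hbb-bt and Alas2) kept both signs under each of the 7 other settings of scaling, normalization, filter and probe choice in which they were measured; Alas2 is left out by the filter on all 4 arrays, where 4 members have the pattern. Hba-a1 differences ranged between 5.29 and 6.42 at ZT12 and between -8.07 and -7.37 at ZT0, and those of Alas2 between 2.68 and 7.15 and between -9.00 and -4.56. The median over all features was -0.57 at ZT12 and 0.17 at ZT0 with median scaling, and the pattern then held for 11.1% of features, or for 8.76% with normexp and quantile normalization. The Gata1 difference at ZT12, no fold since the probe was not well above background on either array, was 1.06 and became -0.0382 with quantile normalization, -0.14 with normexp and quantile normalization and -0.0382 in the authors' series table; the cause was not tested. The number of features called for ALDH was 0 under each setting, and leaving out each array gave between 0 and 0. The number called for time was 0 except without the ZT12 ALDH-high array, and leaving out each array gave between 0 and 1; the 1 call was Gzmc, a granzyme (-6.37, adjusted p = 0.0439 by limma), in a fit that assumes the lone array varies like the others. A random block of array position could not be estimated; as a fixed block in place of the other factor, chosen after seeing the data, it gave 0 calls, with member adjusted p-values of at least 0.620 by limma. That block pairs the arrays by position. No analysis paired by replicate number was possible because each group has 1 array.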
